A study of Mus musculus with 8 samples.

Results

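The chemokines other than Cxcl12 and their receptors were examined in RNA-seq libraries of mouse bone marrow stromal populations. The set held 34 genes of the 49315 genes counted, chosen by name as chemokine ligands and receptors, and all 34 were found in the counts. On background knowledge they were divided into 11 stromal-type ligands, known from fibroblasts, stromal and epithelial cells, 10 haematopoietic-type ligands, known from leucocytes or platelets, 8 ligands of both types, and 5 receptors. Of the 8 libraries, 7 were populations named cluster 1 to cluster 7, sorted as Lin- cells (negative for the endothelial marker CD31, the leucocyte marker CD45 and the erythroid marker Ter119) with combinations of CD24, CD39, CD54, Sca-1 and Ly-6C, and the study's staining also held an antibody to PDGFR-alpha, a stromal marker. The eighth library was the input bone marrow, and how its cells were taken before sequencing is not given in the sources used here. The labels give all mice as wild-type C57BL/6J at 6 weeks of age, name no treatment, and call the cells of all 8 libraries stromal. The number of mice behind each library is not given in the sources used here.

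Each population had 1 library, so there was no replicate check and no test between populations. Intervals given below are 95% exact intervals that cover counting error only, and differences between cells, mice or sorts were not measured. Those that compare a highest with a next or lowest library do not allow for the picking of these libraries by rank. Levels are RPKM, the read count of a gene scaled to its exon length and to the total count on genes, so that genes of different length can be compared within a library. The total count was 24205863, 25349917, 27102715, 32549319, 12833648, 31669132 and 33238133 in clusters 1 to 7 and 20162876 in the input. In cluster 5, 33.9% of the counts lay on 3 loci (Lars2, Col1a1 and an unnamed gene, ENSMUSG00000076258), against 12.1% in cluster 2 and 1.92% in cluster 7, which lowers the RPKM of the remaining genes. Scaling by TMM, edgeR's trimmed mean of M values, moved every level on the log2 scale by -0.24, -0.09, -0.07, -0.06, 0.34, 0.27 and -0.15 in clusters 1 to 7 and -0.77 in the input.

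Chemokines are small secreted proteins that direct the migration of leucocytes through G protein-coupled receptors on those cells. Stromal cells and macrophages release them after inflammatory signals, largely through NF-kB and interferon-induced factors, and in bone marrow they govern the exit of monocytes and neutrophils into blood and the retention of progenitors. The atypical chemokine receptors bind the same ligands without the usual signalling and take them up, which limits the amount of free ligand.

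The labelled cell type was first compared with its markers. The stromal markers Pdgfra, Pdgfrb, Lepr, Cxcl12, Kitl, Col1a1, Col1a2 and Col3a1 were all detected in all 8 libraries, and their summed RPKM was 10084, 5944, 14103, 6784, 7763, 22365 and 8048 in clusters 1 to 7 and 2490 in the input. Col1a1 or Col3a1, the collagen chains, was the most abundant of them in each library. Leucocyte markers were detected as well, although CD45-positive cells had been gated out. The pan-leucocyte markers Ptprc (which encodes CD45), Coro1a and Laptm5 together had a summed RPKM of 101, 96.9, 67.2, 125, 101, 118 and 250 in clusters 1 to 7 and 328 in the input. Coro1a, an actin-binding protein of leucocytes, contributed most in every library, from 60.7% to 68.4% of the sum, and its exons overlap those of Bola2 on the other strand, which had up to 1475 counts. Laptm5 and Ptprc have no such overlap listed, and Ptprc itself was at 2.92, 2.58, 1.69, 2.76, 1.80, 4.02 and 9.26 in clusters 1 to 7 and 13.5 in the input. The markers were thus lowest in cluster 3 and highest, among the sorted libraries, in cluster 7. In bulk RNA, fewer cells of a type and less RNA per cell cannot be told apart.

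Of the 34 genes, 27 had RPKM above 2 in at least 1 sorted library, against 25.1% of all genes. Of these 27, 25 differed more than 2-fold between the highest and the lowest sorted library in RPKM + 1, against 70.6% of all genes above RPKM 2. The exceptions were Ccl5 and Cxcr4, and with TMM scaling Cxcr4 passed as well. A gene that passes the threshold in 1 library has more room to differ, so the 25 are a description and not a test. Among the 27, 8 were highest in cluster 4 and 8 in cluster 7, against 8.95% and 25.3% of all genes above RPKM 2. The cluster 3 library held the highest value of 5 of them and the lowest value of 11, against 9.85% and 8.11% of all genes. Cluster 6 held the highest value of 0 and the lowest of 13, against 7.10% and 25.5%. Cluster 1 was highest for 3 (21.3% of all genes), cluster 5 for 3 (4.73%) and cluster 2 for 0 (22.8%). Clusters 1, 2 and 7 were lowest for 0 of the 27, against 3.82%, 7.25% and 4.59% of all genes, cluster 4 for 2 (4.40%) and cluster 5 for 1 (46.3%). With TMM scaling the numbers highest in clusters 1 to 7 were 2, 0, 6, 7, 4, 0 and 8, against 9.94%, 19.9%, 10.2%, 10.5%, 11.3%, 21.0% and 17.2% of all genes. The numbers lowest were then 0, 0, 12, 2, 1, 12 and 0, against 8.82%, 16.4%, 12.1%, 7.96%, 26.6%, 17.0% and 11.1%.

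**Figure D1:**
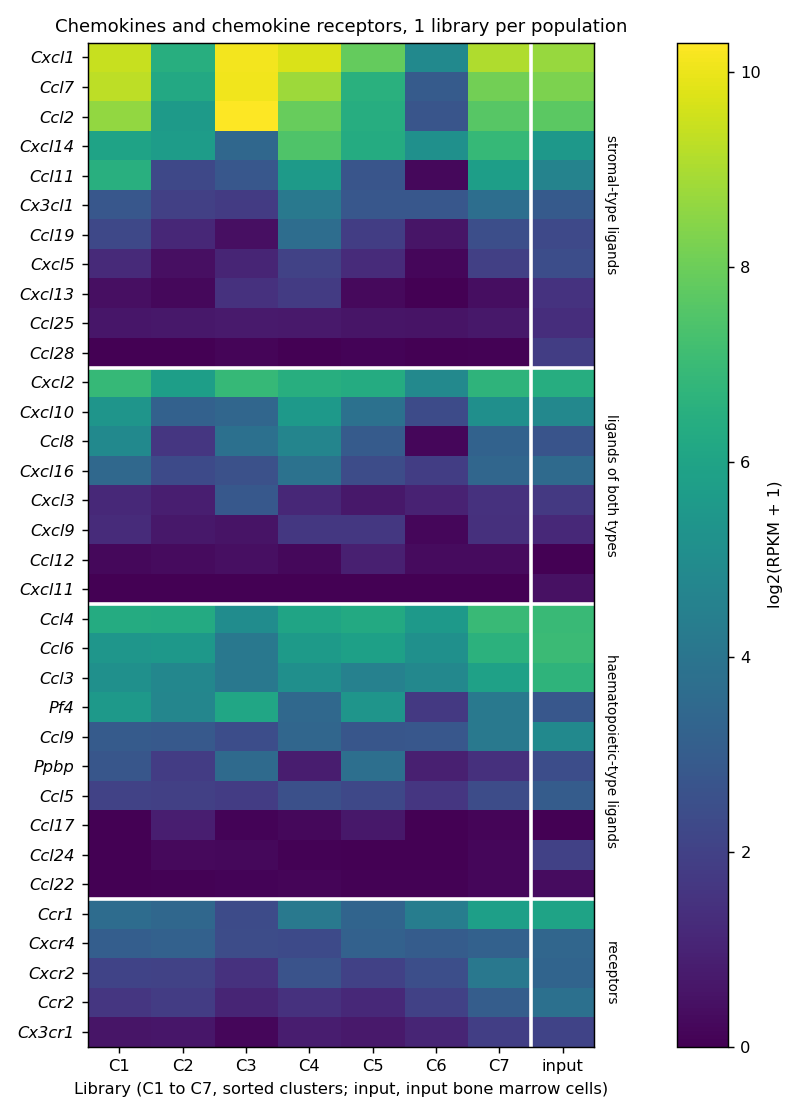
Levels of the 34 genes (rows, ordered within each type by mean level) in the 8 libraries (columns), as log2(RPKM + 1) on the colour scale. Ccl2, Ccl7 and Cxcl1 are brightest in C3 and dark in C6, whereas Cxcl14 is darkest in C3, and the haematopoietic-type ligands vary less between the sorted libraries, apart from Pf4 and Ppbp.

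Ccl2, the main attractant of monocytes through Ccr2, reached the highest level of any of the 34 genes, in cluster 3. Ccl2 (ENSMUSG00000035385, chromosome 11 from 82035571 to 82037453, GRCm38) had RPKM 398, 48.0, 1264, 237.5, 85.5, 5.66 and 195 in clusters 1 to 7 and 209 in the input. These levels rested on 38976 counts in cluster 3 and 204 in cluster 6, and the RPKM ratio of these libraries was 223 (195 to 257). Cluster 3 stood 3.18-fold above cluster 1, the next library (3.11 to 3.25), and 6.06-fold above the input. Ccl7, which also attracts monocytes and lies next to Ccl2, from 82045712 to 82047525, had RPKM 625, 72.9, 1092, 447, 91.8, 6.78 and 273 in clusters 1 to 7 and 307 in the input. The order of the 7 sorted libraries was the same for Ccl2 and Ccl7 in all 21 pairs of libraries. Cluster 3 was again highest, but by 1.75-fold over cluster 1 (1.71 to 1.79), and the ratio of Ccl2 to Ccl7 was 1.16 in cluster 3 (1.14 to 1.18) and between 0.532 and 0.931 in the other sorted libraries.

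Ccl11, or eotaxin, the attractant of eosinophils, is the next gene of the same block but ranked the libraries differently. Its RPKM was 90.6, 3.76, 5.90, 48.0, 5.55, 0.175 and 54.5 in clusters 1 to 7 and 23.2 in the input. Clusters 1, 4 and 7 were thus high and clusters 2, 3 and 5 low, with 6 counts in cluster 6. Cluster 3, where Ccl2 and Ccl7 were highest, had a Ccl2 to Ccl11 ratio of 214 (184.5 to 249), whereas this ratio was 4.39 in cluster 1, 4.94 in cluster 4 and 3.58 in cluster 7. Such a within-library ratio does not depend on the scaling between libraries. The further genes of the set in the 81.2 kb block, which spans chromosome 11 from 82035571 to 82116799, are Ccl12 and Ccl8. Ccl8, a monocyte attractant made by macrophages and stromal cells, had RPKM 29.0, 2.08, 12.8, 24.8, 6.86, 0.124 and 8.42 in clusters 1 to 7 and 5.44 in the input. Its highest levels were those of clusters 1 and 4, a ratio of 1.17 (1.01 to 1.35), and cluster 6 held 2 counts, which gives cluster 1 over cluster 6 a ratio of 235 with an interval of 64.5 to 1947. Ccl12, a mouse monocyte attractant, had 2 to 6 counts in each sorted library and 0 in the input.

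Cxcl1 and Cxcl2 attract neutrophils through Cxcr2 and are neighbours on chromosome 5 in a block of 147 kb, from 90759360 to 90905938, with Cxcl5, Ppbp, Pf4 and Cxcl3. Cxcl1 (ENSMUSG00000029380, from 90891241 to 90893115) had RPKM 685, 88.1, 1106, 832, 230.0, 28.4 and 546 in clusters 1 to 7 and 424 in the input. It was the most abundant ligand of the set in clusters 1, 2, 4, 5 and 7 and in the input. Cluster 3 was highest by 1.33-fold over cluster 4 (1.31 to 1.35), and 38.9-fold above cluster 6 (37.0 to 40.8). Cxcl2 (ENSMUSG00000058427, from 90903871 to 90905938) had RPKM 119.3, 53.2, 119.0, 86.3, 80.03, 27.6 and 104 in clusters 1 to 7 and 83.7 in the input. Cxcl2 thus varied over a narrower range, 4.32-fold (4.10 to 4.56), and clusters 1 and 3 differed by 1.00-fold with an interval of 0.968 to 1.04 that includes no difference. With TMM scaling cluster 3 was the higher of the 2. The ratio of Cxcl2 to Cxcl1 ran from 0.104 in cluster 4 and 0.108 in cluster 3 to 0.971 in cluster 6 (0.909 to 1.04).

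The promoters of these neighbours were compared because both genes were abundant and share a block. Among the 6 most abundant ligands of the stromal and both types with a RefSeq promoter entry (GRCm38.p6), Cxcl1, Cxcl14, Cxcl2, Cxcl10, Ccl8 and Cx3cl1, the bases before the transcription start were searched on both strands for GGG and TTCC with 3 bases between them (kappa B, the NF-kB motif), GAAA and GAAA with 2 bases between them (the interferon-stimulated response element, ISRE) and TGANTCA (AP-1). Capitals mark the matches, and overlapping matches form 1 run of capitals. The Cxcl1 promoter is chr5:90890995-90891240 on the plus strand, and the Cxcl2 promoter is chr5:90903649-90903870 on the plus strand.
Cxcl1: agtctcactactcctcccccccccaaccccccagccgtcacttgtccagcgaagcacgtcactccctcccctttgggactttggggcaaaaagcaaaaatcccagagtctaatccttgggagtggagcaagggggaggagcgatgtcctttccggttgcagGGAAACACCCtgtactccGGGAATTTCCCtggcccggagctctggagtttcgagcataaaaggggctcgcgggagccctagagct
Cxcl2: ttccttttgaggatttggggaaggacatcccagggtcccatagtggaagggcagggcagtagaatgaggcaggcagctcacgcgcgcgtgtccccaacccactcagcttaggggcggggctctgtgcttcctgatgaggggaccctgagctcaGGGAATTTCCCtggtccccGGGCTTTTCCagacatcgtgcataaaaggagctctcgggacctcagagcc
Both hold the run GGGAATTTCCC, which matches the kappa B letters on both strands, ending 57 bases before the annotated start in Cxcl1 and 59 bases before it in Cxcl2. Each has 1 further kappa B match, GGAAACACCC on the minus strand of Cxcl1 and GGGCTTTTCC in Cxcl2. The kappa B letters occurred in 4.65% of the 32851 promoters searched, and in 5 of the 25 genes of the set with an entry (Cxcl1, Cxcl2, Cxcl3, Cxcl10 and Ccl9). These shares, and those of the other motifs below, rest on full windows of 250 bases. The windows of the 6 ligands above were cut where an annotated exon reached into them. A match is a run of letters and does not show binding. No match of these letters was found in the windows of Ccl8 (250 bases) and Cx3cl1, which was only 79 bases long.

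The other ligands of this block were less abundant. Cxcl3, which also acts on Cxcr2, had RPKM 1.25, 0.812, 6.07, 1.19, 0.579, 0.957 and 1.75 in clusters 1 to 7 and 2.25 in the input. Cluster 3 was alone above 2 among the sorted libraries, 3.47-fold over cluster 7 (2.96 to 4.10). Cxcl5, a ligand of Cxcr2 known from epithelium and stroma, was at 1.33, 0.339, 1.09, 3.13, 1.38, 0.136 and 2.84 in clusters 1 to 7 and 4.45 in the input. Its level in cluster 4 exceeded that in cluster 7 by 1.10-fold with an interval of 0.893 to 1.36, so these libraries were not distinguishable by counting error. Pf4 and Ppbp of the same block are platelet ligands and are given with the haematopoietic-type genes.

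**Figure D2:**
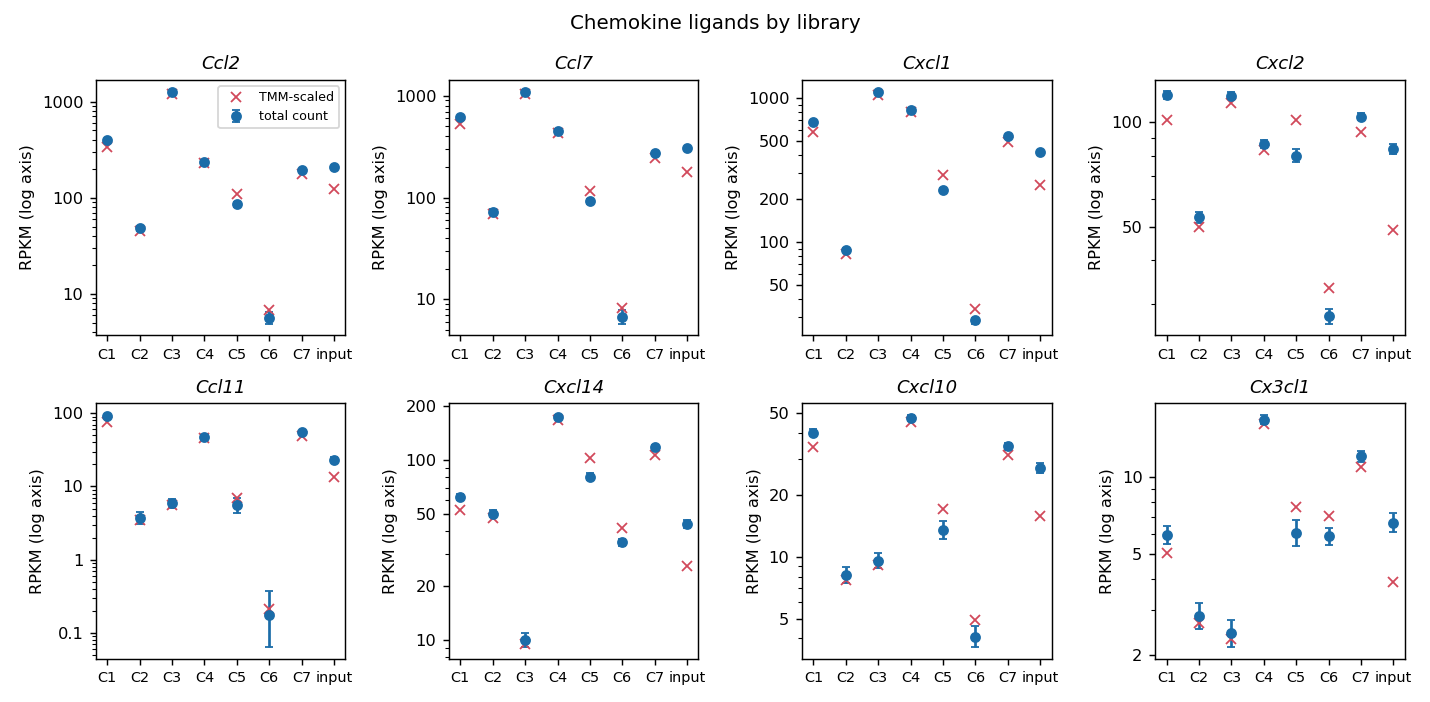
Levels of 8 ligands in each library as RPKM on log axes, by the total count (circles, with 95% Poisson intervals that are often smaller than the circle) and with TMM scaling (crosses). C3 is highest for Ccl2, Ccl7 and Cxcl1 and lowest for Cxcl14 and Cx3cl1, and C1, C4 and C7 are highest for Ccl11 and Cxcl10 under either scaling.

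Cxcl14, a ligand made by fibroblasts and epithelium, was distributed in another way than Ccl2. Its RPKM (ENSMUSG00000021508, chromosome 13 from 56288647 to 56296551) was 61.9, 50.3, 9.96, 174, 80.5, 34.8 and 118 in clusters 1 to 7 and 44.0 in the input. Cluster 4 was highest, 1.48-fold above cluster 7 (1.44 to 1.53), and cluster 3 was lowest, 17.5-fold below cluster 4 (16.0 to 19.2). Within a library the ratio of Cxcl14 to Ccl2 was 0.00788 in cluster 3 (0.00721 to 0.00861) and 6.15 in cluster 6 (5.33 to 7.11), so the 2 extremes of this ratio were the libraries where Ccl2 was highest and lowest. Cxcl14 was the most abundant ligand of the stromal type in cluster 6. Its promoter is shown because it holds the ISRE letters and not those of kappa B, at chr13:56296552-56296801 on the minus strand.
Cxcl14: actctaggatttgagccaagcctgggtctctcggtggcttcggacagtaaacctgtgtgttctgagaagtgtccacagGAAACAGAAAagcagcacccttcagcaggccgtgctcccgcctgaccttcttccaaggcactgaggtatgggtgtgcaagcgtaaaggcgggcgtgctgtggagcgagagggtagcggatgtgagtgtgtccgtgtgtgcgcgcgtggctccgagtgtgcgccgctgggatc
The ISRE letters occurred in 2.98% of promoters, and in 3 of the 25 with an entry (Cxcl14, Cxcl10 and Ccl19).

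Cx3cl1, or fractalkine, the membrane-anchored ligand of Cx3cr1, followed the same order as Cxcl14 in 20 of 21 pairs of libraries by the total count. Its RPKM was 5.94, 2.86, 2.44, 16.8, 6.05, 5.86 and 12.1 in clusters 1 to 7 and 6.64 in the input, highest in cluster 4 by 1.39-fold over cluster 7 (1.30 to 1.48). The counting intervals of clusters 1, 5 and 6 overlapped. With TMM scaling Cx3cl1 was higher in cluster 6 than in cluster 1 (7.06 and 5.03), and Cxcl14 lower (42.0 and 52.4). Ccl19, the ligand of Ccr7 in lymphoid stroma, was at 3.72, 1.23, 0.340, 11.9, 2.70, 0.510 and 4.55 in clusters 1 to 7 and 3.89 in the input. Cluster 4 again held the highest level, and clusters 3 and 6, with 8 and 14 counts, the lowest, but the mouse genome carries near-identical copies of Ccl19, and the treatment of shared reads is not given in the sources used here, so its level is uncertain. Cxcl13, which attracts B cells, had 93 counts in cluster 4 and 54 in cluster 3 (RPKM 2.49 and 1.73), 3 to 11 in clusters 1, 2, 5 and 7, 0 in cluster 6 and 43 in the input. A count of 0 in cluster 6 allows an RPKM of up to 0.0824 at 3 counts, and up to 0.101 by the exact interval. For comparison, Cxcl12, the ligand of Cxcr4 that retains haematopoietic progenitors, had RPKM 33.5, 11.7, 11.7, 139, 42.0, 5.04 and 48.5 in clusters 1 to 7 and 27.0 in the input. Cxcl12, Cxcl14, Cx3cl1, Ccl19, Cxcl5 and Cxcl13 thus all had their highest sorted level in cluster 4, with Cxcl5 not distinguishable there from cluster 7, whereas Ccl2, Ccl7 and Cxcl1 had it in cluster 3.

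The remaining stromal-type ligands were at low levels. Ccl25, known from thymus and gut, had 49 to 158 counts in the sorted libraries (RPKM 0.445 to 0.659) and 233 in the input (RPKM 1.55). Its exons overlap those of Elavl1 on the other strand, which had up to 3664 counts. The strand setting of the counting is not given in the sources used here, so reads of these genes cannot be told apart. Ccl28, known from mucosal epithelium, had 1 to 11 counts in the sorted libraries and 202 in the input (RPKM 2.68).

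Cxcl9, Cxcl10 and Cxcl11 are the interferon-induced ligands of Cxcr3 and lie together in 44.1 kb of chromosome 5, from 92321347 to 92365485. Cxcl10 (ENSMUSG00000034855, from 92346638 to 92348889) had RPKM 40.1, 8.16, 9.55, 47.3, 13.5, 4.08 and 34.5 in clusters 1 to 7 and 27.0 in the input. Clusters 4, 1 and 7 were high and cluster 6 low, with cluster 4 at 1.18-fold of cluster 1 (1.12 to 1.24). Art3, whose exons overlap those of Cxcl10 on the other strand, had at most 193 counts, against 291 to 3465 for Cxcl10 in the sorted libraries. Cxcl9 was at 1.40, 0.602, 0.453, 2.15, 2.22, 0.147 and 1.73 in clusters 1 to 7 and 1.30 in the input, and its levels in clusters 5 and 4 differed by 1.03-fold with an interval of 0.795 to 1.33, but with TMM scaling cluster 5 was higher by 0.45 on the log2 scale. Cxcl11 had 0 or 1 count in each sorted library and 28 in the input. Cxcl10 was thus the main ligand of this block in these libraries.

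The Cxcl10 promoter, at chr5:92348890-92349139 on the minus strand, is shown because it alone among the 4 printed promoters holds all 3 motifs.
Cxcl10: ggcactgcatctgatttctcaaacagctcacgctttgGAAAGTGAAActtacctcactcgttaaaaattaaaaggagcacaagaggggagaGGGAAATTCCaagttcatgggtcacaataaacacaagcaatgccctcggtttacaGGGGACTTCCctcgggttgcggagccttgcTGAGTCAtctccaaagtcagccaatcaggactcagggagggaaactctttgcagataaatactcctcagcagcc
It has 2 kappa B matches, GGGAAATTCC and GGGGACTTCC, 1 ISRE match, GAAAGTGAAA, and 1 AP-1 match, TGAGTCA. The AP-1 letters occurred in 6.75% of promoters and in 3 of the 25 with an entry (Cxcl10, Ppbp and Ccl9). Cxcl16, the membrane-anchored ligand of Cxcr6, had RPKM 10.2, 4.0, 4.81, 13.9, 4.20, 2.70 and 9.57 in clusters 1 to 7 and 10.8 in the input. It was highest in cluster 4, 1.37-fold above cluster 1 (1.25 to 1.49), and lowest in cluster 6, as was Cxcl10.

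The haematopoietic-type ligands Ccl3, Ccl4, Ccl5, Ccl6 and Ccl9 lie in 139 kb of chromosome 11, from 83525778 to 83664683, and varied less among the sorted libraries. Ccl3, a macrophage inflammatory protein and ligand of Ccr1, had RPKM 34.8, 26.1, 16.7, 34.4, 21.9, 26.8 and 58.7 in clusters 1 to 7 and 103 in the input. Ccl4, a further macrophage inflammatory protein, was at 79.2, 78.5, 31.0, 64.1, 76.6, 45.2 and 126 in clusters 1 to 7 and 124 in the input. Both were highest in cluster 7, by 1.69-fold (1.54 to 1.85) and 1.59-fold (1.49 to 1.70) over cluster 1, and lowest in cluster 3. Ccl6, a ligand of Ccr1 made by myeloid cells, was at 41.5, 43.8, 16.4, 48.7, 57.3, 35.1 and 97.9 in clusters 1 to 7 and 131 in the input. Ccl9, a further myeloid ligand of Ccr1, was at 6.74, 6.32, 4.39, 9.50, 5.73, 5.87 and 17.0 in clusters 1 to 7 and 28.9 in the input. Ccl5, an attractant of T cells and monocytes, was lower, at 3.10, 2.92, 2.54, 4.70, 3.73, 2.14 and 4.23 in clusters 1 to 7 and 6.97 in the input, and its levels in clusters 4 and 7 were not distinguishable (1.11-fold, 0.874 to 1.42). The 4 more abundant of these 5 ligands thus had their highest sorted level in cluster 7 and their lowest in cluster 3, the libraries where Ptprc, Coro1a and Laptm5 were highest and lowest.

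Relative to the summed RPKM of these 3 leucocyte markers, Ccl3 was at 0.346, 0.269, 0.248, 0.275, 0.216, 0.226 and 0.235 in clusters 1 to 7 and 0.314 in the input. The highest of the sorted ratios was 1.61 times the lowest for Ccl3 and 1.53 times for Ccl9, against ranges of their RPKM of 3.52-fold and 3.87-fold. It was 2.13 times for Ccl4, 2.23 times for Ccl5 and 2.32 times for Ccl6, against RPKM ranges of 4.05-fold, 2.20-fold and 5.98-fold. The receptors ranged from 2.25-fold for Ccr2 to 5.12-fold for Cx3cr1, against RPKM ranges of 6.48-fold and 19.0-fold. For Cxcr4 the ratio ranged 2.63-fold and the RPKM 2.08-fold. Among stromal-type ligands the same ratio varied 4.55-fold for Cx3cl1, 68.5-fold for Cxcl1 and 609-fold for Ccl11. Their RPKM ranges were 6.88-fold, 38.9-fold and 517-fold, so the range of Cx3cl1 narrowed and those of Cxcl1 and Ccl11 widened. For Cxcl16 the ratio varied 4.89-fold and the RPKM 5.155-fold. The ratio of Ccl9 and that of Ccl3 thus had the narrowest ranges among the genes above RPKM 2, and these values do not show in which cells the transcripts lay.

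**Figure D3:**
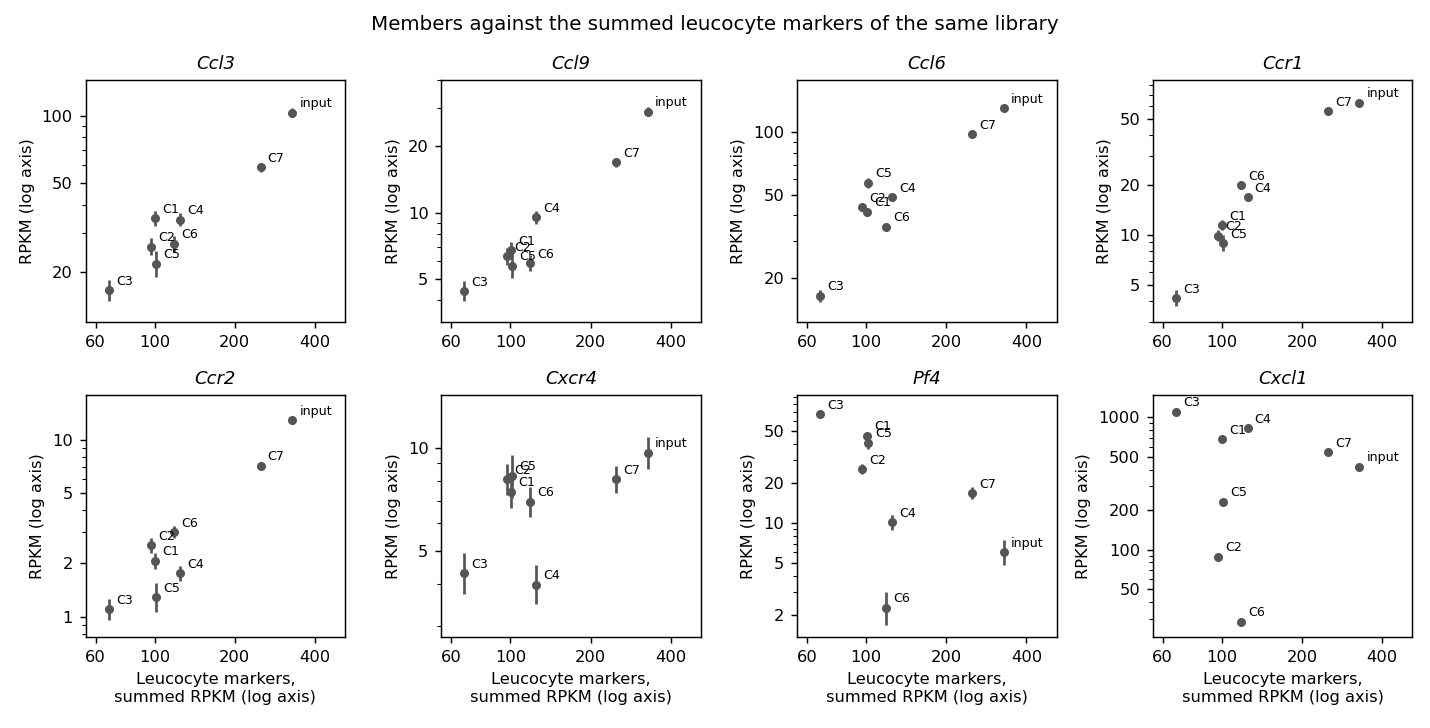
Level of 8 genes (vertical axes, RPKM, 95% Poisson intervals) against the summed RPKM of Ptprc, Coro1a and Laptm5 in the same library (horizontal axes), all on log axes. Ccl3, Ccl9, Ccl6, Ccr1 and Ccr2 are lowest in C3 and highest in C7 and the input, whereas Pf4 and Cxcl1 are highest in C3.

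Pf4 and Ppbp, the chemokines of platelet granules, differed from the other haematopoietic-type ligands. Pf4 (ENSMUSG00000029373, chromosome 5 from 90772435 to 90773383) had RPKM 46.1, 25.7, 67.0, 10.1, 40.7, 2.28 and 16.9 in clusters 1 to 7 and 5.99 in the input. Cluster 3 was highest, 1.45-fold above cluster 1 (1.33 to 1.59) and 11.2-fold above the input. Ppbp was at 5.80, 2.55, 10.9, 0.794, 12.7, 0.875 and 1.67 in clusters 1 to 7 and 4.4 in the input, and its levels in clusters 5 and 3 were not distinguishable by the total count (1.17-fold, 0.967 to 1.41), but with TMM scaling cluster 5 was higher by 0.64 on the log2 scale. Relative to the leucocyte markers, Pf4 ranged 51.9-fold and Ppbp 25.5-fold over the sorted libraries. The ratio of Pf4 to Ppbp was 7.96, 10.1, 6.15, 12.8, 3.2, 2.60 and 10.2 in clusters 1 to 7 and 1.36 in the input (1.02 to 1.82).

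Markers of megakaryocytes, the known source of Pf4, were low. Itga2b, Gp1bb, Gp9, Gp6 and Treml1 had a summed RPKM of 11.8, 10.1, 10.8, 7.99, 7.76, 3.14 and 6.97 in clusters 1 to 7 and 7.84 in the input. Itga2b, the integrin chain of the platelet fibrinogen receptor, was at 5.72, 2.18, 3.90, 3.59, 2.31, 0.973 and 4.03 in clusters 1 to 7 and 5.12 in the input. Gp1bb, a chain of the platelet receptor for von Willebrand factor, was at 4.72, 7.36, 4.08, 2.42, 1.95, 1.70 and 1.66 in clusters 1 to 7 and 0.633 in the input, and its exons overlap those of Sept5 on the same strand, which had up to 1285 counts. Gp9, of the same receptor, was at no more than 2.21 and at 0 in cluster 2, and Gp6, the platelet collagen receptor, at 0 in cluster 6. The summed markers, like Pf4, were lowest in cluster 6. In cluster 5 and the input they were at 7.76 and 7.84, and with TMM scaling at 9.81 and 4.59, where Pf4 with TMM scaling was at 51.5 and 3.50. The part of megakaryocytes or platelets in the Pf4 level was not tested. The last 3 ligands of this type were nearly absent from the sorted libraries. Ccl17 and Ccl22, ligands of Ccr4 made by dendritic cells and macrophages, had 0 to 11 and 0 to 10 counts, and in the input 0 and 13. Ccl24, a further eosinophil attractant, had 0 to 7 counts and 77 in the input (RPKM 2.95).

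The receptors followed the leucocyte markers in part. Ccr1, the receptor of Ccl3, Ccl6 and Ccl9 on myeloid cells, had RPKM 11.5, 9.87, 4.15, 16.8, 8.91, 19.9 and 55.7 in clusters 1 to 7 and 62.5 in the input. Cluster 7 stood 2.80-fold above cluster 6, the next sorted library (2.66 to 2.96). Cxcr2, the receptor of Cxcl1 and Cxcl2 on neutrophils, was at 3.2, 3.13, 1.80, 5.16, 3.02, 4.56 and 16.4 in clusters 1 to 7 and 9.05 in the input. Ccr2, the receptor of Ccl2 and Ccl7 on monocytes, was at 2.07, 2.53, 1.10, 1.75, 1.29, 3.01 and 7.14 in clusters 1 to 7 and 12.9 in the input. Cx3cr1, the receptor of Cx3cl1 on monocytes and macrophages, was at 0.486, 0.525, 0.147, 0.777, 0.623, 1.12 and 2.80 in clusters 1 to 7 and 3.25 in the input, and an unnamed gene that overlaps its exons on the other strand had up to 46 counts. These 4 receptors were highest in cluster 7 and lowest in cluster 3 among the sorted libraries, whereas Ccl2 and Cxcl1 were highest in cluster 3 and lowest in cluster 6. Cxcr4, the receptor of Cxcl12, was at 7.43, 8.09, 4.29, 3.98, 8.28, 6.95 and 8.09 in clusters 1 to 7 and 9.66 in the input. Its levels in clusters 5 and 2 were not distinguishable by the total count (1.02-fold, 0.854 to 1.22), but with TMM scaling cluster 5 was higher by 0.46 on the log2 scale. Its lowest levels were those of clusters 3 and 4.

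Markers of myeloid cells were set beside the receptors. The macrophage markers Adgre1, Csf1r, Cd68, C1qa, C1qb, C1qc and Mrc1 had a summed RPKM of 24.7, 19.7, 16.6, 31.0, 35.2, 29.1 and 81.8 in clusters 1 to 7 and 93.6 in the input, with all 7 detected in every library. Cd68, a lysosomal protein of macrophages, was the most abundant of them in all libraries but cluster 1, where C1qb was. The neutrophil-lineage markers S100a8, S100a9, Mpo, Elane, Ltf, Camp and Ngp had a summed RPKM of 14085, 15910, 10805, 16955, 25463, 15072 and 28706 in clusters 1 to 7 and 42331 in the input, led by S100a9 in each. Both sums were highest in cluster 7 and lowest in cluster 3 among the sorted libraries, as the 4 receptors were, and with TMM scaling this held for the macrophage sum and the receptors. The neutrophil-lineage sum was then highest in cluster 5, at 32198 against 25946 in cluster 7, and S100a8, S100a9 and Camp were highest in cluster 5 under either scaling. The median of log2(RPKM + 1) over the 7 neutrophil-lineage markers, centred for each gene on its mean over the sorted libraries, was lowest in cluster 1, at -0.82, and not in cluster 3, at -0.56. That of the 7 macrophage markers was lowest in cluster 2, at -0.59, with -0.57 in cluster 3. Both medians were highest, among the sorted libraries, in cluster 7. The part of such cells in the receptor levels was not tested.

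The types were then compared as sums of RPKM. The 11 stromal-type ligands summed to 1872, 268, 3483, 1773, 504, 82.9 and 1206 in clusters 1 to 7 and 1028 in the input. The 8 ligands of both types, of which Cxcl2 was the most abundant in every library, summed to 201.5, 69.1, 153, 176, 108, 35.9 and 160 in clusters 1 to 7 and 131 in the input. The 10 haematopoietic-type ligands summed to 217, 187, 149, 173, 219, 118 and 323 in clusters 1 to 7 and 407 in the input, and the 5 receptors to 24.7, 24.2, 11.5, 28.5, 22.1, 35.5 and 90.1 in clusters 1 to 7 and 97.3 in the input. The stromal-type sum thus spanned a wider range than the others. Within a library, the log2 ratio of the stromal-type to the haematopoietic-type sum was 3.11, 0.52, 4.54, 3.36, 1.20, -0.51 and 1.90 in clusters 1 to 7 and 1.34 in the input. Cluster 6 was the library with less stromal-type than haematopoietic-type ligand RPKM, but with the 8 ligands of both types added to the stromal sum its log2 ratio was 0.01. In share of all counts, the 34 genes took 0.316%, 0.0804%, 0.491%, 0.328%, 0.131%, 0.0479% and 0.279% in clusters 1 to 7 and 0.255% in the input. The low share in cluster 6 stood beside the highest sum of stromal markers, but Col1a1 alone, with RPKM 15952, made up 71.3% of that sum. Of the other stromal markers, Col1a2 was also highest in cluster 6 among the sorted libraries. Pdgfrb, Kitl, Cxcl12 and Col3a1 were lowest in cluster 6, and Pdgfra and Lepr were lowest in cluster 2.

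**Figure D4:**
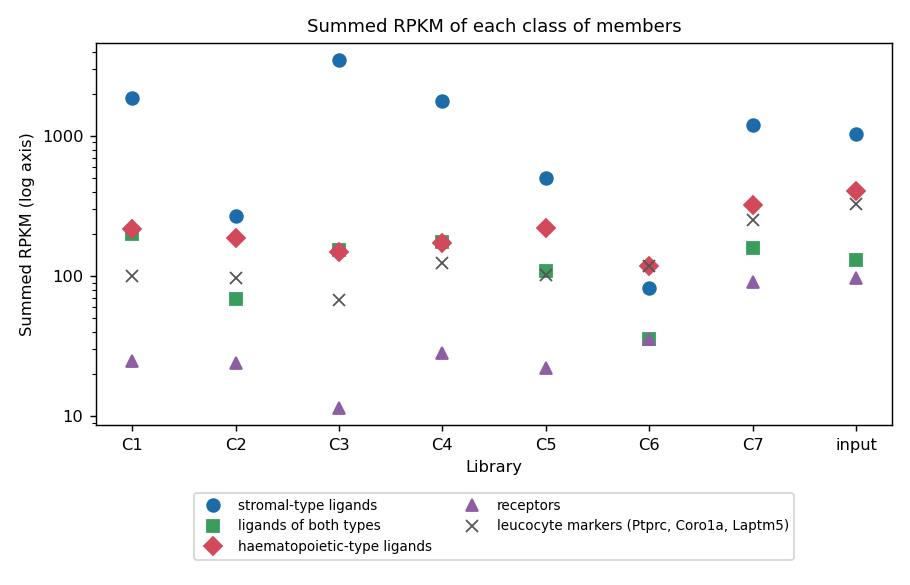
Summed RPKM of the stromal-type ligands, ligands of both types, haematopoietic-type ligands, receptors and leucocyte markers in each library, on a log axis. The stromal-type ligands lie highest in every library except C6, where they lie below the haematopoietic-type ligands.

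Against the input, 11 of the 29 genes above RPKM 2 in any of the 8 libraries were more than 2-fold higher in RPKM + 1 in at least 1 sorted library, against 13.1% of all such genes. They were Ccl2, Ccl7, Ccl11, Ccl19, Cxcl1, Cxcl14 and Cx3cl1 of the stromal type, Ccl8 and Cxcl3 of both types, and Pf4 and Ppbp, with ratios to the input from 2.53 for Cx3cl1 to 11.2 for Pf4. None of the 5 receptors was among them by the total count. With TMM scaling 15 of 27 genes passed, against 31.5% of all such genes, and the 4 that were added were Cxcl2, Cxcl9, Cxcl10 and the receptor Cxcr2, at 14.9 in cluster 7 and 5.30 in the input. More than 2-fold below the input in all 7 sorted libraries were 2 genes, Ccl24 and Ccl28, against 31.2% of such genes. This call also required RPKM above 2 in the input. With TMM scaling (17.6% of such genes) or DESeq2 size factors neither passed, because their input levels fell below that threshold. With TMM scaling these were 1.73 and 1.57, and the sorted levels, at most 0.201 and 0.103, remained more than 2-fold lower in RPKM + 1. All levels of the input were lower with TMM scaling, by 0.77 on the log2 scale, so these ratios depend on the scaling.

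The atypical chemokine receptors, which were not among the 34 genes, were examined as the part of the system that removes ligands. All 4 that could be matched were above RPKM 2, against 25.1% of all genes, and differed more than 2-fold, against 70.6% of genes above RPKM 2. Ackr4 was not matched. Ackr2, the scavenger of inflammatory CC ligands such as Ccl2, Ccl7 and Ccl11, had RPKM 6.90, 2.70, 42.5, 2.78, 0.274, 5.22 and 8.0 in clusters 1 to 7 and 10.6 in the input. Cluster 3, the library with the most Ccl2 and Ccl7, was highest by 5.32-fold over cluster 7 (4.93 to 5.74). The ratio of Ackr2 to Ccl2 was not highest there. It was 0.0337 in cluster 3, above clusters 1, 4 and 5 and below clusters 2, 6 and 7, and ran from 0.00321 in cluster 5 to 0.922 in cluster 6. Ackr3, the scavenger of Cxcl12, was at 89.7, 50.6, 216.5, 44.9, 17.8, 53.3 and 69.7 in clusters 1 to 7 and 103 in the input. It too was highest in cluster 3, by 2.41-fold over cluster 1 (2.35 to 2.48), and the ratio of Ackr3 to Cxcl12 ran from 0.322 to 18.5 over the sorted libraries. Ackr1, which binds many inflammatory ligands, was at 11.6, 1.97, 9.01, 2.80, 6.10, 0.315 and 1.99 in clusters 1 to 7 and 2.12 in the input, and its exons overlap those of Cadm3 on the same strand, which had up to 410 counts. Ccrl2, which presents chemerin and has no known chemokine signalling, was at 3.14 to 11.3, highest in cluster 7, and 14.7 in the input.

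**Figure D5:**
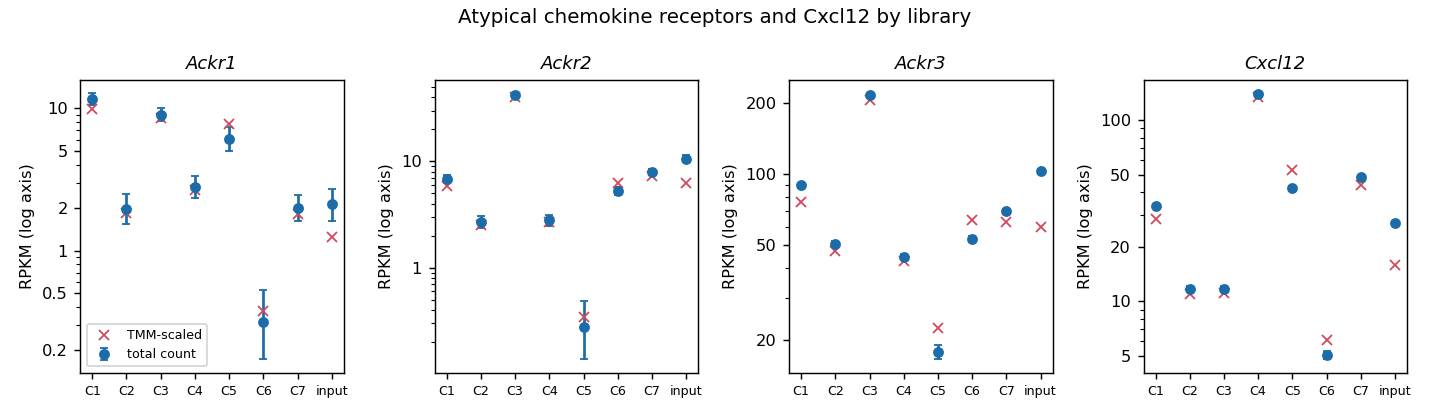
Levels of Ackr1, Ackr2, Ackr3 and Cxcl12 in each library as RPKM on log axes, by the total count (circles, 95% Poisson intervals) and with TMM scaling (crosses). Ackr2 and Ackr3 are highest in C3, and Cxcl12 is highest in C4.

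Of 7 other chemokines, Cxcl12 alone passed RPKM 2 in a sorted library, against 25.1% of all genes. Ccl27a and Xcl1 reached 1.86 and 1.5, both in cluster 1, but the exons of Ccl27a overlap those of Il11ra1 on the other strand, which had up to 18156 counts, and those of Xcl1 an unnamed gene with up to 59. The ligands Ccl1, Ccl20 and Cxcl15 reached at most 0.368, and Ccl21a, a ligand of Ccr7 with several near-identical copies, had 0 counts in all 8 libraries. Of 12 other chemokine receptors, Ccr7, which guides lymphocytes and dendritic cells, passed, at 1.42 to 8.88 in the sorted libraries and 19.6 in the input. The next in mean level were Cxcr5 of B cells, at 0.255 to 1.03, and Cxcr3 of T cells, the receptor of Cxcl10, at 0.128 to 0.643. The typical chemokine receptors above RPKM 2 in a sorted library were thus Ccr1, Ccr2, Cx3cr1, Cxcr2, Cxcr4 and Ccr7.

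Genes of the pathways that induce chemokines were described from 2 lists. All 17 genes of the NF-kB list were above RPKM 2, against 25.1% of all genes, and 16 differed more than 2-fold, Rel being the exception. For comparison, 70.6% of all genes above RPKM 2 differed so. The numbers highest in clusters 1 to 7 were 3, 1, 2, 5, 0, 0 and 6, against 21.3%, 22.8%, 9.85%, 8.95%, 4.73%, 7.10% and 25.3% of all genes. With TMM scaling they were 1, 1, 3, 7, 0, 0 and 5, against 9.94%, 19.9%, 10.2%, 10.5%, 11.3%, 21.0% and 17.2%. Nfkbia, the NF-kB inhibitor that NF-kB itself induces, was at 1086, 443, 985, 913, 415, 209 and 798 in clusters 1 to 7 and 1018 in the input. Zfp36, which destabilises cytokine mRNA, was at 499, 215, 236.5, 474, 175, 179.5 and 587 in clusters 1 to 7 and 494 in the input. Nfkbia, like Ccl2, was lowest in cluster 6, but its range was 5.20-fold where that of Ccl2 was 223-fold. Il6, the inflammatory cytokine, was at 78.3, 17.6, 41.9, 189.5, 44.1, 5.05 and 137 in clusters 1 to 7 and 63.2 in the input, so that it was highest in cluster 4 and lowest in cluster 6. Csf2, the growth factor of granulocytes and macrophages, was at 40.1 in cluster 3 and at 0.779 to 3.30 in the other sorted libraries.

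All 12 genes of the interferon list were above RPKM 2, against 25.1% of all genes. Of these, 10 differed more than 2-fold, against 70.6% of all genes above RPKM 2, and 8 were highest in cluster 7, against 25.3%. With TMM scaling 8 differed so, as did 6720 of the 12360 genes above RPKM 2 by the total count. Highest in cluster 7 were then 7, against 17.2% of all genes. Irf1, a transcription factor of the interferon response, was at 138, 37.4, 51.4, 101, 33.1, 27.4 and 139 in clusters 1 to 7 and 116 in the input. Ifngr1, the ligand-binding chain of the interferon gamma receptor, was at 18.5 to 79.3 in the sorted libraries and 92.5 in the input, and Ifnar2, of the type I receptor, at 15.6 to 32.5 and 36.0. Over all 11 stromal-type ligands, the median of log2(RPKM + 1), centred on the mean of the sorted libraries, was 1.30 in cluster 4 and -0.98 in cluster 6, against 0.05 and -0.19 over all genes above RPKM 2. These were the highest and the lowest values for the stromal-type ligands, with -0.05 in cluster 5 and 0.69 in cluster 7. The median of the 17 NF-kB genes was highest in cluster 7 (0.67) and lowest in cluster 5 (-0.72), with 0.61 in cluster 4 and -0.36 in cluster 6. The median of the 12 interferon genes was likewise highest in cluster 7 (0.57) and lowest in cluster 5 (-0.45), where that of all genes was -0.42. The part of these pathways in the ligand levels was not tested.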

How the data were processed

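The authors deposited read counts per Ensembl gene, with exon positions and the exon length of each gene. The Methods describe cell suspensions made from crushed bones digested with collagenase, and the effect of this step on the levels was not tested. RNA of bone marrow cells was extracted with Trireagent, and libraries were made with a TruSeq kit after selection of polyadenylated RNA. According to the Methods, reads were processed in Partek Flow and aligned by TopHat2 to mm9, whereas the coordinates deposited with the counts match GRCm38: of 23307 symbols, 96.2% started within 10 kb of their RefSeq position. The counting tool, strandedness and the treatment of reads shared between genes are not given in the sources used here.

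RPKM was computed from the counts, the exon length and the total count on genes. The depth of the sorted libraries was 12833648 to 33238133 counts. A gene was counted above RPKM 2 in at least 1 sorted library, and as differing with more than 2-fold between the highest and lowest library in RPKM + 1 (a pseudocount of 1). Levels have exact Poisson intervals, ratios between libraries exact binomial intervals, and ratios within a library intervals from the Poisson variance on the log scale, all at 95%. With 1 library per population, edgeR and DESeq2 gave scaling factors and no test. Of 142 genes in all lists 141 were matched, 4 by RefSeq synonym and 3 by position (Ccl28 among them), and Ackr4 was not. A few further genes of the lists are not reported here and were left out of the sums. Genes of the set above RPKM 2 in any library were named with their values, the others with their counts, and of each further list the 3 genes highest in mean RPKM over the sorted libraries. Il6 is the third of the NF-kB list, and Csf2, the ratios between genes and the pairs of libraries ordered alike were chosen after their values were seen. Ligands of the stromal and both types above RPKM 10 were considered for their promoters, which were cut before the first annotated exon. The genes and lists were chosen with earlier results of these data known.

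On simulated counts of the 49315 genes in the 7 sorted libraries, 200 of 200 genes changed 4-fold were called as differing, as were 232 of 10428 unchanged genes above RPKM 2. These counts held counting error only and came from 1 profile pooled over the sorted libraries. Spread between mice or sorts and differences in composition were not simulated, so the error rates of the real comparison are not known. Alternatives were TMM factors, DESeq2 size factors, totals without the 3 largest loci, thinned counts, RPKM thresholds of 1 and 5, a pseudocount of 0.1, other class definitions and omission of cluster 5, and, added after the data were seen, omission of cluster 3 or 7. The work used R 4.3.3 with DESeq2 1.42.0 and edgeR 4.0.16, and Python 3.11.15 with matplotlib 3.10.9, scipy 1.17.1, pandas 2.3.3 and numpy 2.4.6.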

Additional observations from a re-analysis of the deposited data

How the results depend on the processing

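No paired analysis was possible because no population had more than 1 library. The numbers of genes above RPKM 2 and differing more than 2-fold stayed within 1.5 times of their value under every alternative tried. The number below the input, 2, was 0 with TMM factors, 0 with DESeq2 size factors and 0 with RPKM above 5. In each of these settings the input levels of both genes, Ccl24 and Ccl28, lay below the RPKM threshold. The number highest in cluster 4 was 5 with RPKM above 5. Without cluster 5, 1 gene was highest in cluster 2. Without cluster 3, 6 were highest in cluster 1, and without cluster 7, 5 were highest in cluster 1 and 2 in cluster 6. The log2 ratio of stromal-type to haematopoietic-type ligands, without the most abundant gene of each class, was 0.73, 4.76, 3.12, 0.94, -0.61 and 1.75 in clusters 2 to 7 and 1.13 in the input. With ligands of both types counted as stromal it was 3.25, 0.85, 4.61, 3.50, 1.48, 0.01 and 2.08 in clusters 1 to 7 and 1.51 in the input, and with them counted as haematopoietic 2.16, 0.07, 3.53, 2.35, 0.62, -0.90 and 1.32 in clusters 1 to 7 and 0.93 in the input. Cluster 3 had the highest ratio and cluster 6 the lowest under each of these definitions.

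For single genes, the highest library of Cxcl2 and Ccl5 changed with TMM factors, DESeq2 size factors and totals without the 3 largest loci, and that of Cxcr4 with thinned counts. The log2 ratio of cluster 1 to cluster 3 for Cxcl2 was -0.16 with TMM factors and -0.20 with DESeq2 size factors. Of 81 values recomputed for named genes, 45 stayed within their counting interval and 36 moved beyond it. With 1 library a population, the intervals do not cover the spread between mice or sorts. Cxcl11, Ccl12, Ccl24, Ccl22, Ccl17 and Ccl28, with at most 11 counts in any sorted library, allow no reliable order of the libraries. The intervals of the highest over the lowest library lay above 1 for Ccl28 (1.87 to 553) and Ccl12 (1.01 to 57.3), but were wide. They do not allow for the picking of these libraries as the extremes, so they cannot show a difference.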

Other observations

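Markers of further cell types were detected in the sorted libraries and are given as values only. The erythroid markers Hba-a1, Hbb-bs and Alas2, of haemoglobin and haem synthesis, were highest in cluster 5 at RPKM 30376, 18522 and 117, against 593, 572 and 11 in cluster 6 and 267, 242 and 5.10 in the input, although Ter119-positive cells had been gated out. The 4 erythroid markers, with Klf1, were all highest in cluster 5. B cell markers summed to RPKM 27.6 in cluster 3, the lowest, 88.5 in cluster 7, the highest sorted library, and 214.6 in the input, led by Cd79b at 14.7 to 37.3 and Cd79a at 9.07 to 39.9 in the sorted libraries, with Vpreb1 at 3.42 to 11.3. Of the T and NK cell markers, Nkg7, which granulocytes also express, was at 24.2 to 60.9, and Cd3d and Klrb1c reached 1.16 and 0.589.

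Of 4 markers of eosinophils, basophils and mast cells, 3 passed RPKM 2 in a sorted library, against 25.1% of all genes. Epx, the eosinophil peroxidase, did not, so Prg2 was the only eosinophil marker of the list above RPKM 2. Over the sorted libraries Ccl11, an eosinophil attractant, ranged from RPKM 90.6 to 0.175. Prg2, the eosinophil major basic protein, was at RPKM 13.4 in cluster 1, where Ccl11 was highest, and 63.8 in cluster 5, its highest level, with 3.79 in the input. Mcpt8, a basophil protease, was at 9.75 to 50.6 in the sorted libraries and 139 in the input, and Cpa3, a mast cell protease, at 0.778 to 4.70 and 18.3. Dendritic cell markers were low, with Zbtb46 at 0.971 to 3.01, Siglech at 0.687 to 3.34 and Flt3 at 0.177 to 1.19 in the sorted libraries. Endothelial markers were low as well, with Pecam1, which encodes CD31, at 1.31 to 3.84, Cdh5 at 0.210 to 2.48 and Kdr at 0.381 to 1.49. The part of these cells in the chemokine levels was not tested.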
